A study of Rattus norvegicus with 14 samples.

Results

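The solute carrier genes measured in rat liver were taken as every gene with an Slc symbol followed by a digit on the array, other than Slc2a2, Slc2a5, Slc10a1 and Slc27a2. Probe sets, the groups of short probes that together read 1 transcript, were used only where the platform annotation gave them a single gene symbol, and the brightest probe set stood for a gene. This gave 116 genes, read by 176 probe sets, of 4736 genes with a symbol of their own. Liver RNA came from 74-day-old male rats that had been 53 days on a diet sufficient or deficient in vitamin A, and it was hybridised to 14 single-channel Affymetrix rat arrays, 7 for each diet. Each diet had 4 arrays, numbered 1 to 4, for which about 10 µg of RNA was labelled, and 3 arrays, numbered 1, 2 and 4, used about 2 µg. Same-numbered arrays within a diet were merged into a single value, here called a replicate, so each diet had n = 4. Replicate 3 has no 2 µg array, so its value comes from 1 array. The labels leave unsaid whether same-numbered arrays came from 1 animal, and the p-values therefore describe only the scatter among replicates as defined here. Strain and the rest of the diet are not given here.

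Solute carriers move sugars, amino acids, organic acids, vitamins, metals and ions across the plasma membrane and the membranes of organelles, mostly without spending ATP directly. In liver they bring nutrients and drugs from portal blood into the hepatocyte, exchange metabolites between cytosol and mitochondria, and return glucose, urea and iron to the circulation. Vitamin A is stored in liver as retinyl ester, and its acid form acts on genes through retinoic acid receptors.

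The trimmed mean intensity of an array, with 2% of probe sets taken off each end, lay between 1001.9 and 1002.1, and precision is limited by how many arrays there are. All 10 measured hepatocyte markers were bright, the dimmest being Tat at 11.27, and 0 of 10 passed the diet test. Levels here are log2 of the scaled intensity plus 16, where an intensity of 0 becomes 4, and differences are deficient minus sufficient on that scale, which understates the change of dim genes. In bulk tissue, fewer cells of a type and less RNA per cell cannot be told apart.

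Of the 116 solute carrier genes, 83 (71.6%) had a mean level over the filter of 6.196 and were tested, against 66.2% of all genes. The other 33 were not tested. Passing the filter is not a detection call, and none was used here. Brightness also depends on the probes, so levels of different genes say how bright their probe sets were and not which gene had more RNA. The mean levels of the tested carriers ran from 6.22 to 12.66, with 21 under 7 and 12 at 10 or more. The near side of the filter held Slc16a8 at 6.22 and Slc5a3 at 6.24, and the nearest genes outside it were Slc8a3 at 6.10 and Slc25a14 at 6.07. For 4 tested genes, Slc2a1, Slc5a3, Slc16a8 and Slc22a13, the mean of 1 diet lay under the filter.

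**Figure D1:**
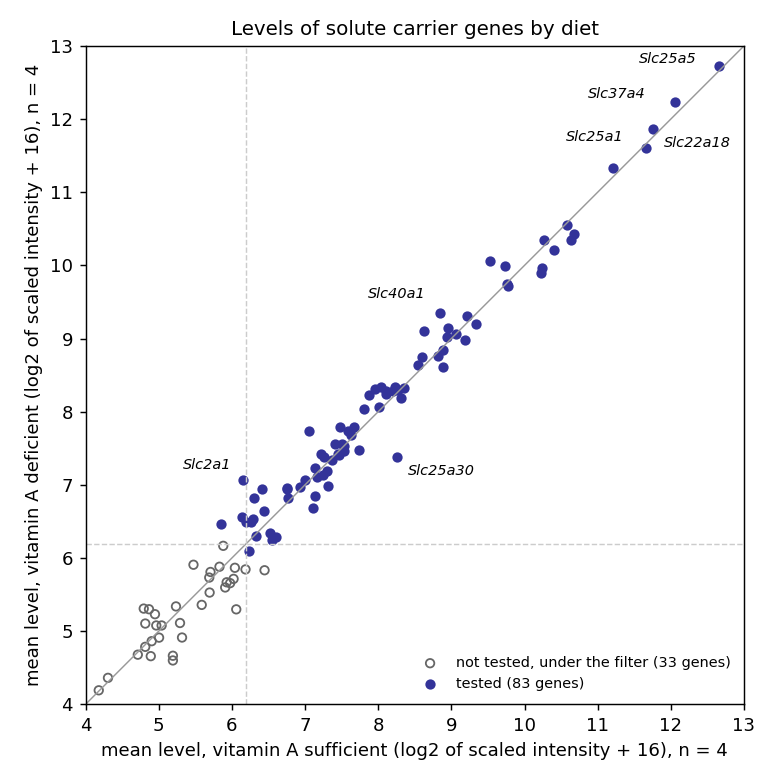
Mean level of each of the 116 solute carrier genes in vitamin A-sufficient (horizontal) and vitamin A-deficient (vertical) liver, as log2 of scaled intensity plus 16, n = 4 per diet. Filled points are the 83 tested genes, open points the 33 under the filter, dashed lines mark the filter at 6.196, and most points lie close to the line of equal levels.

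Vitamin A deficiency was compared with sufficiency for each of the 83 tested carriers. None passed limma's test at an adjusted p of 0.05, against 1.88% of all 3135 genes tested (0.829% higher and 1.05% lower in deficient liver). At an unadjusted p under 0.05 there were 8 of 83 carriers (9.64%), against 14.7% of all genes. Among these, 7 were higher in deficient liver and 1 was lower, where all genes had 9.51% higher and 5.17% lower. The carriers' differences ran from -0.88 to 0.92. Those of all 3135 genes ran from -7.32 to 2.36, but a range widens with the number of genes. Their median absolute difference was 0.156, beside 0.152 for all genes. The differences were above 0 for 49 of 83 carriers (59%), beside 59.3% of all genes, and the median difference was 0.0634, beside 0.0468. Leaving out a single value moved the estimate of 46 of the 60 carriers named by rule by over 1.5 times. Estimates near 0, such as -0.02 for Slc2a4, pass such a ratio easily, and it was not taken over all genes. With arrays scaled to a common median the carriers' median difference was 0.00184, with 42 of 83 above 0.

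The precision sets what these tests could leave unseen. The 95% interval of the difference lay within 2-fold either way for 72 of 83 carriers (86.7%), beside 89.7% of all genes, and 0 of 83 carriers had an estimate past 2-fold, beside 1.63%. For the other 11 carriers a 2-fold difference was inside the interval, in 9 of them towards higher and in 2 towards lower levels in deficient liver. The median distance from the estimate to the end of the interval was 0.367. Carriers with a level of 9 or more had a median SD within diets of 0.181 (22 genes), and those under 9 had 0.247 (61 genes).

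**Figure D2:**
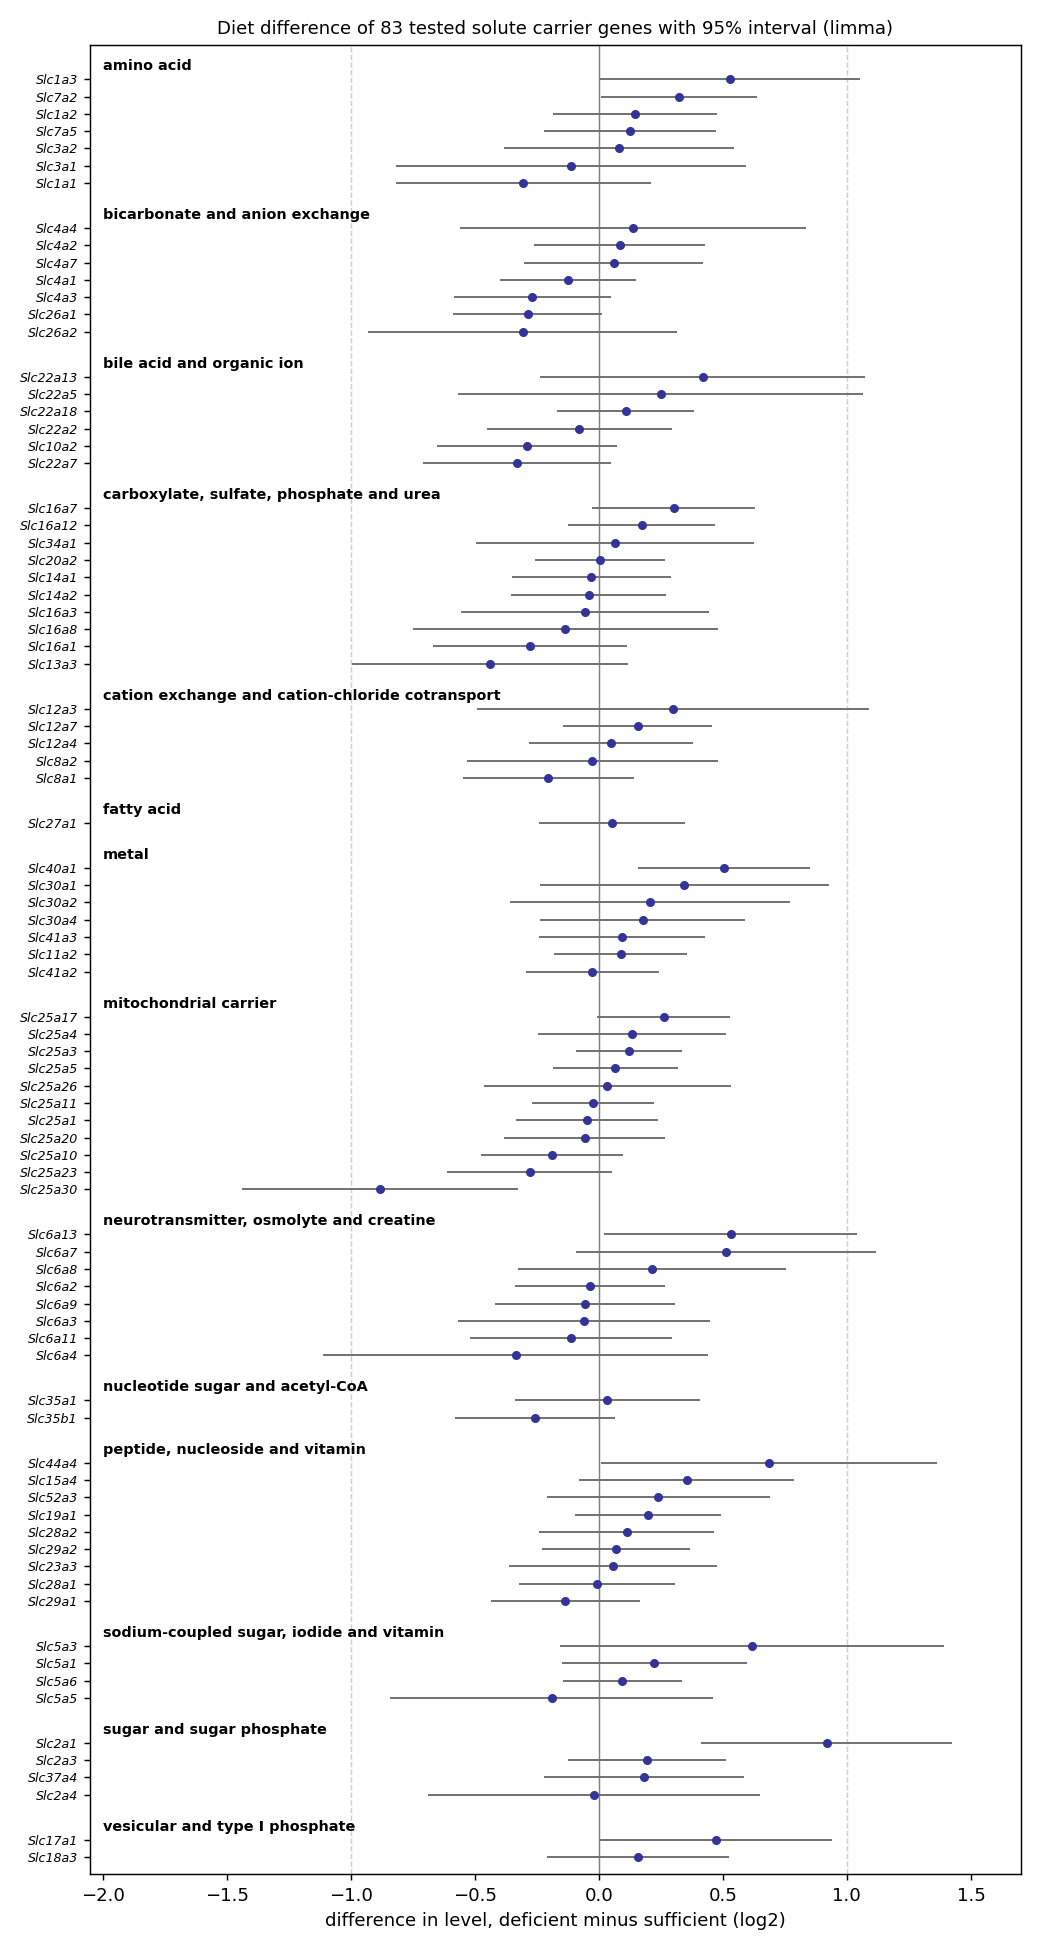
Deficient minus sufficient difference (log2, horizontal) of each of the 83 tested solute carriers with its 95% interval from limma, grouped by transported substrate, with dashed lines at 2-fold either way. The interval excludes 0 for 8 genes and lies within 2-fold for 72.

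Sugar carriers held the largest difference. Slc2a1, the glucose transporter of endothelium and many dividing cells, read 6.58, 5.97, 6.26 and 5.77 in sufficient liver and 6.72, 7.09, 7.40 and 7.05 in deficient liver. The averaged deficient values all lay above the averaged sufficient ones. Single arrays overlapped, with the 10 µg array of deficient replicate 1 at 6.47 and the 2 µg array of sufficient replicate 1 at 6.80. The difference was 0.92 (SE 0.23, 95% interval 0.41 to 1.42), a ratio of 1.89, with an adjusted p of 0.0813 in limma. It passed in 1 of the fits that left out a single value, without sufficient replicate 1, at 1.06 (adjusted p = 0.0498 in limma). The values lie near the filter of 6.196, with the sufficient mean of 6.14 under it and the deficient mean of 7.06 over it. Slc2a1 thus entered the test through its deficient values. Its difference moved from 1.12 with a pseudocount of 1 to 0.60 with one of 64. A second probe set of Slc2a1 was under the filter, with means of 5.20 in sufficient and 5.64 in deficient liver. The summed intensity of the 7 measured endothelial markers ran from 1184 to 1408 in sufficient and from 1047 to 1247 in deficient liver. Of 6 tested, 1, Lyve1, passed limma's test, lower in deficient liver, beside 1.05% of all genes. The median difference of the 6 was 0.0788, and their part in the Slc2a1 difference was not tested.

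The other tested sugar carriers had smaller estimates. Slc37a4, which carries glucose-6-phosphate to the glucose-6-phosphatase inside the endoplasmic reticulum, had means of 12.05 ± 0.41 in sufficient and 12.23 ± 0.16 in deficient liver (SD, n = 4). Sufficient replicate 1, at 11.44, was apart from the other sufficient values of 12.18, 12.22 and 12.36, and without it the difference turned from 0.18 to -0.02. Slc2a3, a high-affinity glucose transporter, differed by 0.19 (95% interval -0.13 to 0.51). Slc2a4, the insulin-responsive glucose transporter, differed by -0.02, with an interval from -0.69 to 0.65. Among the sodium-coupled carriers, Slc5a1, a glucose cotransporter, differed by 0.22 in its brightest probe set and by -0.25 in a second one, Slc5a6, the multivitamin transporter, by 0.09, and the myo-inositol transporter Slc5a3 by 0.62 with an interval from -0.16 to 1.39. The widest of these intervals belongs to a gene with a mean level of 6.24.

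Mitochondrial carriers shuttle metabolites across the inner membrane. The class used here had 12 measured genes, of which 11 were tested. It also holds the peroxisomal carrier Slc25a17, which had the highest estimate of the class, at 0.26. The median difference of the 11 was -0.0231, with 5 estimates above 0 and 6 below. Slc25a30, also called the kidney mitochondrial carrier, had the lowest estimate of all carriers, with sufficient values of 7.87, 7.80, 9.08 and 8.29 and deficient values of 7.56, 7.22, 7.19 and 7.52. The averaged deficient values all lay below the averaged sufficient ones. Single arrays overlapped, with the 10 µg array of deficient replicate 1 at 7.74 and that of sufficient replicate 2 at 7.65. The highest sufficient value is number 3, which rests on a single array. The difference was -0.88 (SE 0.25, adjusted p = 0.126 in limma), and without sufficient replicate 3 it was -0.61 (adjusted p = 0.178 in limma). It was -0.76 on the 10 µg arrays and -0.71 on the 2 µg arrays.

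The carriers that serve fuel metabolism in mitochondria were measured more tightly. Slc25a1, which exports citrate for fatty acid synthesis, read 11.65 ± 0.05 in sufficient and 11.61 ± 0.26 in deficient liver (SD, n = 4), with a 95% interval of the difference from -0.34 to 0.24. Slc25a3, the phosphate carrier, had an interval from -0.09 to 0.33, and Slc25a20, the carnitine-acylcarnitine carrier of fatty acid oxidation, one from -0.38 to 0.27. The dicarboxylate carrier Slc25a10 differed by -0.19 and the calcium-regulated ATP-Mg/phosphate carrier Slc25a23 by -0.28. The peroxisomal carrier Slc25a17 differed by 0.26 (95% interval -0.01 to 0.53). These intervals all lie within 2-fold.

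Of the 7 tested metal carriers, 6 (85.7%) had an estimate above 0, beside 59.3% of all genes, with a median of 0.178. The sign was the same at both RNA amounts for 4 of the 7. Slc40a1, ferroportin, the iron exporter of macrophages and hepatocytes, read 8.83, 8.83, 8.83 and 8.90 in sufficient liver and 8.95, 9.62, 9.62 and 9.23 in deficient liver. The averaged groups did not overlap, the averaged sufficient values lay close together, and deficient replicate 1 was nearest to them. Single sufficient arrays spread from 8.60 to 9.06, and the 10 µg array of deficient replicate 1, at 8.81, lay inside that range. The difference was 0.50 (SE 0.16, adjusted p = 0.160 in limma). Without deficient replicate 1 it was 0.64 and passed (adjusted p = 0.0495 in limma). A second Slc40a1 probe set, made from the same deposited sequence, differed by 0.47 (adjusted p = 0.258 in limma). Its SD in sufficient liver was 0.20, beside 0.03 for the first.

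Macrophages express much of the liver's ferroportin, and the summed macrophage markers were higher in each deficient value than in any sufficient one. Their summed intensity ran from 6802 to 7637 in sufficient and from 8455 to 11166 in deficient liver. The sum weighs bright genes most, such as Ctss, at a mean level of 11.20 and a difference of 0.65. Of the 8 tested, 1, Lgals3, passed limma's test, higher in deficient liver, beside 0.829% of all genes. The differences of the 8 ran from -0.0007 for Fcgr2b and 0.05 for Ptprc to 0.77 for Lgals3, with a median of 0.242. Csf1r, which was not tested, had means of 5.98 in sufficient and 5.73 in deficient liver. None of the macrophage markers was at 0. Their part in the Slc40a1 difference was not tested. The divalent metal importer Slc11a2 differed by 0.09 (95% interval -0.18 to 0.36). The zinc exporters Slc30a1, Slc30a2 and Slc30a4 differed by 0.35, 0.21 and 0.18, each with an interval that spans 0, and Slc30a4 was 0.43 on the 10 µg and -0.17 on the 2 µg arrays.

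Slc2a1, Slc40a1 and Slc25a30 were the 3 of 83 carriers (3.61%) whose averaged values did not overlap between diets, beside 9.03% of all genes. The pair that was higher in deficient liver makes 2.41% of the carriers, beside 6.16% of all genes, and the 1 that was lower makes 1.2%, beside 2.87%. Slc2a1, counted in the 3.61% and the 2.41%, entered the test through its deficient values.

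**Figure D3:**
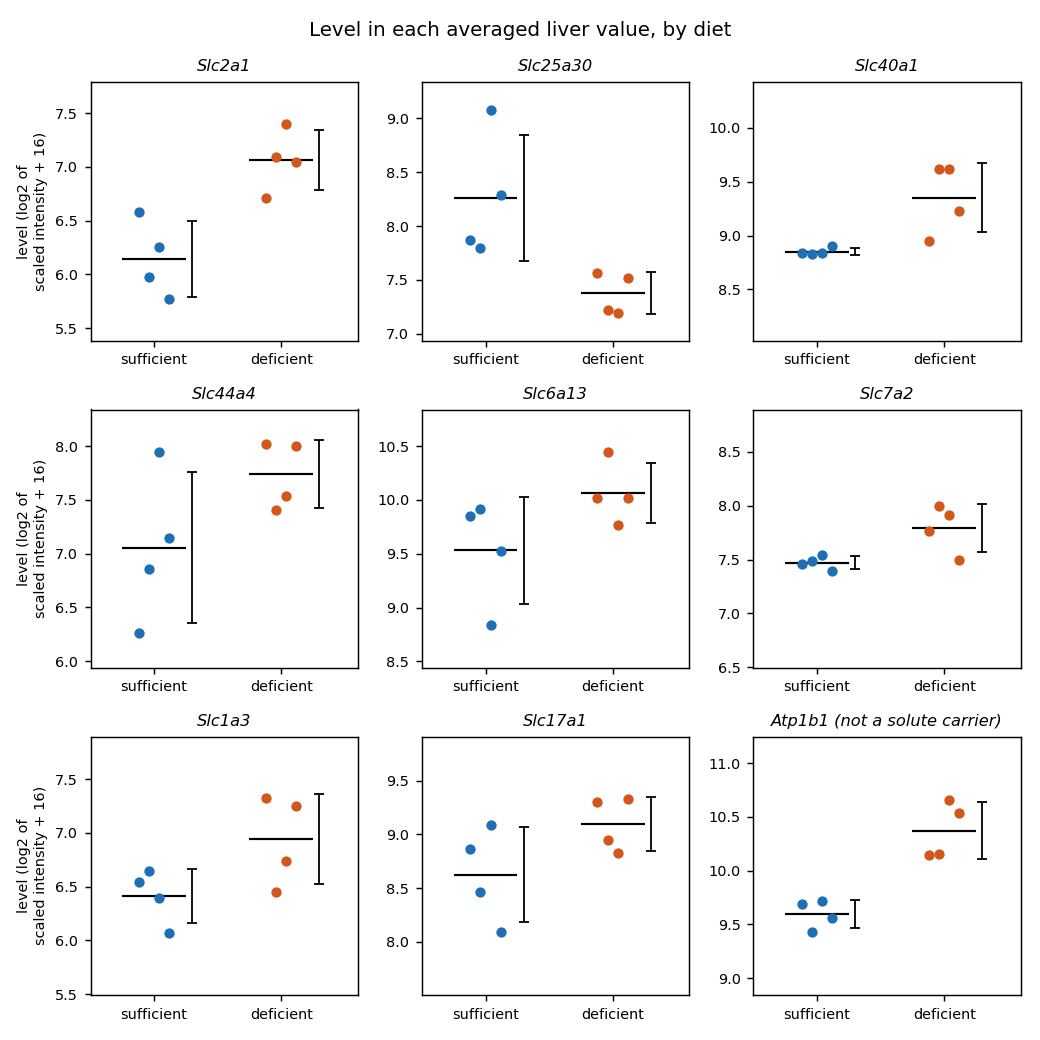
Level (log2 of scaled intensity plus 16) of the 8 solute carriers with an unadjusted p under 0.05 and of Atp1b1, which is not a solute carrier, in each averaged value by diet, with the mean as a line and the SD as a bar (n = 4 per diet). The diets do not overlap for Slc2a1, Slc25a30, Slc40a1 and Atp1b1, and they overlap for the other 5 genes.

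The promoters of Slc2a1 and Slc40a1 are shown because these carriers had non-overlapping averaged values that were higher in deficient liver. Each is the 250 bases before the RefSeq start in the GRCr8 build, 5′ to 3′ on the strand of the gene, and capitals mark a match to a nuclear receptor half-site.
Slc2a1, chr5:138002272-138002521, plus strand: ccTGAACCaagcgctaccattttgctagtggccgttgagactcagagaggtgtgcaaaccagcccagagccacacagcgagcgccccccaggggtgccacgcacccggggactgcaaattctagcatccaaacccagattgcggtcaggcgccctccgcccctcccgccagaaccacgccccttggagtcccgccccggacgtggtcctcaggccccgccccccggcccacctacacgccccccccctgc
Slc40a1, chr9:55543461-55543710, minus strand: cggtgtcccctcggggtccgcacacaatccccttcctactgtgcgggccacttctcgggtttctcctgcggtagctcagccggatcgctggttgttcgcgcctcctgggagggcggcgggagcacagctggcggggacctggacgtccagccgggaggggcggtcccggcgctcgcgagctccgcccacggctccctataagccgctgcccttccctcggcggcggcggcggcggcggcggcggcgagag
The half-sites searched on both strands were the consensus AGGTCA, its variant GGGTCA with another first letter, and the corresponding forms AGTTCA and, again with another first letter, GGTTCA. The Slc2a1 window held 1 match, TGAACC, at position -248 from the start, and the Slc40a1 window held none. Of the 97 carriers with a promoter in the RefSeq table, 43 (44.3%) held a half-site, beside 38.5% of all 27457 promoters. A direct repeat of 2 half-sites spaced by 5 bases was found in 0 of the 97 and in 0.324% of all promoters. A match describes letters only and is not a binding site, and both windows are rich in G and C, at 68.4% and 74%.

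Among the 7 tested amino acid carriers, Slc7a2, the cationic amino acid transporter that brings arginine into hepatocytes, read 7.46, 7.48, 7.55 and 7.39 in sufficient and 7.77, 8.0, 7.92 and 7.49 in deficient liver. Deficient replicate 4 lay inside the sufficient range and the other 3 above it. The difference was 0.32 (95% interval 0.01 to 0.64, adjusted p = 0.335 in limma). Slc1a3, a glutamate and aspartate transporter, differed by 0.53 (adjusted p = 0.340 in limma), with 0.92 on the 10 µg arrays and 0.07 on the 2 µg arrays. The other glutamate transporters Slc1a1 and Slc1a2 differed by -0.30 and 0.14, and Slc7a5, which carries large neutral amino acids, by 0.13.

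Carriers of neurotransmitters and osmolytes had a median difference of -0.0464 over 8 tested genes. Slc6a13, a GABA, taurine and betaine transporter of hepatocytes and brain coverings, read 9.85, 9.92, 8.84 and 9.52 in sufficient and 10.02, 10.45, 9.77 and 10.02 in deficient liver. Only deficient replicate 3 lay inside the sufficient range. The difference was 0.53 (adjusted p = 0.326 in limma), and without sufficient replicate 3, the lowest value, it was 0.30. Slc6a7, a proline transporter, differed by 0.51, with 0.69 on the 10 µg and 0.03 on the 2 µg arrays, and by 0.23 without sufficient replicate 3, its lowest value. Slc6a8, the creatine transporter, differed by 0.21 and Slc6a4, the serotonin transporter, by -0.33, and the intervals of these 3 genes span 0.

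Vitamin, nucleoside and peptide carriers had estimates above 0 for 7 of 9 tested genes (77.8%), beside 59.3% of all genes, with a median of 0.112. Slc44a4, a choline transporter-like protein that carries thiamine pyrophosphate, read 6.26, 6.86, 7.95 and 7.15 in sufficient and 8.02, 7.41, 7.54 and 8.0 in deficient liver. Its sufficient values spread widely and sufficient replicate 3 lay among the deficient ones. The difference was 0.69 (95% interval 0.01 to 1.36, adjusted p = 0.339 in limma). Slc19a1, the reduced folate carrier, differed by 0.20, Slc52a3, a riboflavin transporter, by 0.24 and the lysosomal peptide and histidine carrier Slc15a4 by 0.35. Slc29a1, the equilibrative nucleoside transporter, differed by -0.14 (95% interval -0.44 to 0.16).

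Carriers of bile acids and organic ions take up drugs and metabolites, and 6 of 9 were tested. Slc22a7, an organic anion transporter of the sinusoidal membrane, read 10.23, 10.53, 10.02 and 10.10 in sufficient and 9.54, 9.76, 10.27 and 10.00 in deficient liver. Deficient replicates 1, 2 and 4 lay below all the sufficient values and replicate 3 among them. The difference was -0.33 (95% interval -0.71 to 0.05). Slc10a2, the bile acid transporter of ileum and bile duct cells, differed by -0.29, and the carnitine transporter Slc22a5 by 0.25 with an interval from -0.57 to 1.06. The summed intensity of the 4 cholangiocyte markers ran from 391 to 425 in sufficient and from 439 to 614 in deficient liver, 0 of 4 passed, and their part in the Slc10a2 estimate was not tested.

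The class that carries carboxylates, sulfate, phosphate and urea had a median difference of -0.0359 over 10 tested genes. Slc16a1, the main proton-coupled lactate and pyruvate transporter of hepatocytes, differed by -0.28 (95% interval -0.67 to 0.12), while its relative Slc16a7 differed by 0.30 (interval -0.03 to 0.63) and Slc16a12 by 0.17. The sodium dicarboxylate cotransporter Slc13a3 differed by -0.44, with -0.19 on the 10 µg and -0.92 on the 2 µg arrays, and its interaction of diet and amount did not pass (0.73, SE 0.44, adjusted p = 1.00 in limma). Slc17a1, a type I phosphate and urate transporter, was classed with the vesicular carriers and not among these 10. It read 8.87, 8.46, 9.09 and 8.09 in sufficient and 9.30, 8.95, 8.82 and 9.33 in deficient liver. The diets' values interleave, and the difference was 0.47 (adjusted p = 0.341 in limma), with 0.43 in a second probe set.

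Bicarbonate and anion exchangers had a median of -0.125 over 7 tested genes. The hepatic sulfate and oxalate exchanger Slc26a1 read 10.31, 10.87, 10.79 and 10.59 in sufficient and 10.22, 10.44, 10.36 and 10.38 in deficient liver, and sufficient replicate 1 lay inside the deficient range. Its difference was -0.29 (95% interval -0.59 to 0.01). Slc4a1, band 3, the chloride and bicarbonate exchanger of red cells, differed by -0.13 (95% interval -0.40 to 0.15), and a dimmer Slc4a1 probe set by -0.56 (adjusted p = 0.257 in limma). Of the 6 tested erythroid markers, a list that holds Slc4a1 itself, 4 passed limma's test, all lower in deficient liver. Slc4a1 and Tfrc, at -0.37, were lower without passing. None was at 0, and the summed intensity of the list ran from 12861 to 15956 in sufficient and from 4077 to 6855 in deficient liver. Their part in the Slc4a1 and Slc2a1 values was not tested. The exchangers Slc4a2 and Slc4a3 differed by 0.08 and -0.27.

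The remaining classes were small. The sodium-calcium exchanger Slc8a1 differed by -0.20, and the potassium-chloride cotransporters Slc12a4 and Slc12a7 by 0.05 and 0.16. Slc35b1, a nucleotide sugar transporter-related protein of the endoplasmic reticulum, differed by -0.26 (95% interval -0.58 to 0.06), and the CMP-sialic acid transporter Slc35a1 by 0.03, an estimate that turned to -0.03 under median and quantile scaling. Slc27a1, the single fatty acid transport protein counted here, differed by 0.05, which turned to -0.01 under median scaling. None of these intervals excluded 0.

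The RNA amount was compared over all 14 arrays as a check on how evenly the carriers were read. None of the 83 carriers differed between 10 µg and 2 µg at an adjusted p of 0.05 in limma, as was so for 0% of all genes. At an unadjusted p under 0.05 there were 7 of 83 (8.43%), beside 6.41% of all genes. The differences, 10 µg minus 2 µg, ran from -0.54 for the bicarbonate cotransporter Slc4a4, named here for that extreme, to 0.69 for the iodide transporter Slc5a5. With diet and number as a block, which takes up the likeness of same-numbered arrays, 0 of 83 carriers and 0% of all genes passed in limma, 11 carriers (13.3%) and 11.4% of all genes had an unadjusted p under 0.05, and the differences ran from -0.53 for Slc2a4 to 0.59 for the lactate transporter Slc16a8. In that fit, which used only the 6 pairs of same-numbered arrays and so left out replicate 3, Slc4a4 was at -0.28 and Slc5a5 at 0.49.

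The diet difference had the same sign at both amounts for 53 of 83 carriers (63.9%), beside 67.5% of all genes. The interaction of diet and amount passed for 0 of 83 carriers (limma, adjusted p) and for 0% of all genes. At an unadjusted p under 0.05 it held 1 carrier (1.2%), Slc44a4, beside 1.53% of all genes. Slc44a4 differed by 0.36 at 10 µg and 1.48 at 2 µg, an interaction of -1.12 (adjusted p = 1.00 in limma). With the block, 0 carriers passed the interaction and 4, Slc44a4, Slc4a4, Slc12a3 and Slc2a4, had an unadjusted p under 0.05 (4.82%), beside 3.29% of all genes. Slc2a1 differed by 0.99 and 0.74, and Slc40a1 by 0.40 and 0.54, at 10 µg and 2 µg.

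**Figure D4:**
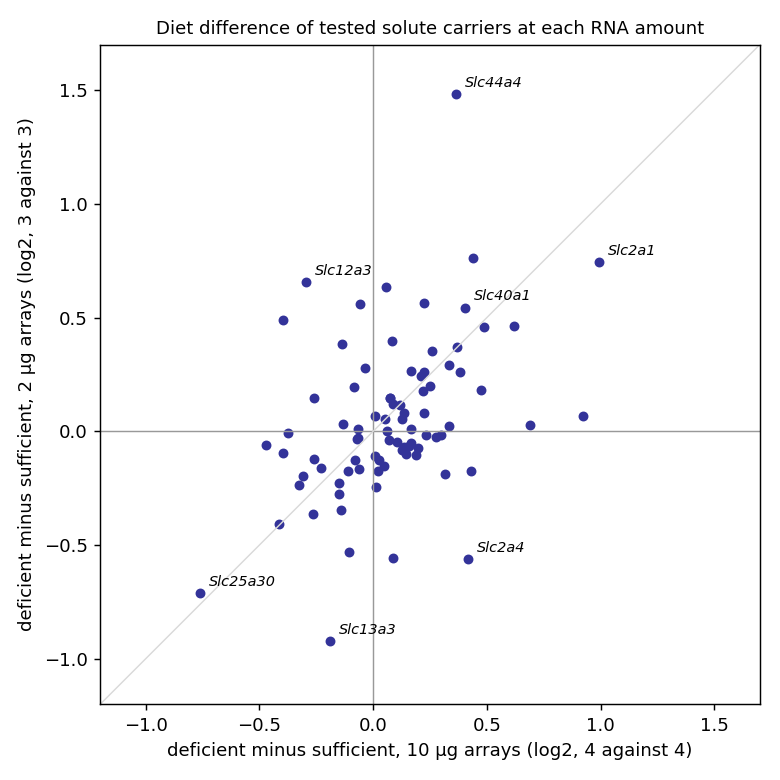
Deficient minus sufficient difference (log2) of the 83 tested solute carriers on the 10 µg arrays (horizontal, 4 against 4) and the 2 µg arrays (vertical, 3 against 3). The signs are the same for 53 genes, and Slc44a4 lies far from the line of equality, at 0.36 and 1.48.

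Several probe sets read 42 of the 116 carriers, and for 21 of these at least a pair passed the filter. All tested probe sets of a gene had the same sign for 15 genes and differed in sign for 6. The level of a gene differed between its probe sets by a median of 1.11 and at most by 4.12. Over all 109 probe sets of carriers that passed the filter, 0 passed limma's test by diet, and the lowest adjusted p was 0.0813.

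Other membrane transport genes were taken from a list of ATP-driven pumps, ABC transporters, organic anion transporting polypeptides and the 4 solute carriers set aside above. Of 68 listed genes 41 were measured and 28 tested. In limma 2 of the 28 passed at an adjusted p of 0.05, both higher in deficient liver. Over all genes 0.829% passed as higher and 1.05% as lower. Estimates were above 0 for 16 of the 28 and below 0 for 12. Atp1b1, the beta subunit of the sodium-potassium pump that maintains the sodium gradient used by sodium-coupled carriers, read 9.69, 9.43, 9.71 and 9.56 in sufficient and 10.14, 10.15, 10.66 and 10.53 in deficient liver. The deficient values all lay above the sufficient ones, and the difference was 0.77 (SE 0.15, adjusted p = 0.0204 in limma). A second Atp1b1 probe set differed by 0.59 (adjusted p = 0.0740 in limma), and the call was also lost without sufficient replicate 2 or 4, without deficient replicate 3 or 4, on either RNA amount alone and under median scaling, with adjusted p values up to 0.156 in limma. The other was the phospholipid exporter Abcb4, at 0.80 (adjusted p = 0.0385 in limma), which passed in 2 of the 8 fits that left out a single value and in 6 of the 12 other alternatives. None of the 3 tested organic anion transporting polypeptides and 0 of the 4 solute carriers set aside passed in limma, with 1 and 2 at an unadjusted p under 0.05. That unadjusted p was reached by 7 of all 28 listed genes tested and by 14.7% of all genes.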

How the data were processed

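The authors deposited 1 table of intensity values on a linear scale, 1 per probe set and array. Per the labels' protocols, total RNA was purified on columns and labelled for hybridisation in the way Affymetrix recommends. The program behind the intensities is not given in the sources used here, and 0 columns were left unmapped. Control probe sets (59 of 8799) were removed, arrays were scaled to a trimmed mean of 500, and log2 of intensity plus 16 was taken. Testing was limited to the 5244 probe sets with a mean over the 40th percentile (6.196). Platform symbols matched GRCr8 RefSeq genes by Entrez identifier for all 116 carriers, with 0 symbols changed, and 2 Slc probe sets with several symbols were left out.

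The mean shift between RNA amounts (6 pairs) was removed, same-numbered arrays of a diet were averaged, and lmFit and eBayes of limma 3.58.1, run in R 4.3.3 with a variance trend, were applied to the 8 values. Tests were two-sided, with Benjamini-Hochberg adjustment over all probe sets tested. The RNA amount and interaction fits used 14 separate arrays. Same-numbered arrays of 1 diet correlated across amounts in all 6 pairs, at 0.202 to 0.351, so the pairing rests on the data and the shared number. The fits were also run on simulated data with known changes, and no result here rests on that run. Counts over all genes use the brightest probe set of 3135 genes.

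The members and lists were chosen with earlier results of these data known. The genes named are the 8 largest differences each way with the same sign at both amounts, the 5 with the smallest p in each class (all in small classes), and a list of liver carriers, 60 in all. Any other gene was named after seeing its values. The alternatives tried were other scalings, pseudocounts of 1 and 64, other filters, no trend, each amount alone, no shift removal, other blocks, second probe sets and leaving out each value.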

Additional observations from a re-analysis of the deposited data

Results flagged for a closer look

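Over the named carriers, Atp1b1 and Abcb4, 1 group per diet, 124 groups of 4 values were looked at for a value far from the other 3, and 6 were found, where chance sets apart about 1 in 20 groups. In deficient liver, Slc10a2 read 7.12 in replicate 2 beside 6.73 to 6.77 in the others, and Slc30a4 read 7.34 in replicate 4 beside 6.78 to 6.83. Deficient replicate 3 stood apart for Slc16a1, at 9.73 beside 10.02 to 10.06, and for Slc12a7, at 9.01 beside 8.65 to 8.68, and it rests on its 10 µg array alone. Slc35b1 read 10.09 in deficient replicate 1 beside 10.52 to 10.54. In sufficient liver, Slc40a1 read 8.9 in replicate 4 beside 8.83 in the other 3, a small gap among close values.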

How the results depend on the processing

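No solute carrier passed by diet under any alternative that kept all values, and leaving out 1 value in turn gave 0 to 1 carriers: Slc2a1 without sufficient replicate 1 and Slc40a1 without deficient replicate 1. The RNA amount and the interaction gave 0 carriers under every alternative run. The number shared across diets did not pair the values (correlations of 0.0672, -0.0763, 0.0257 and -0.00984), and with that number as a replicate block 0 carriers and 1 related transport gene passed. With diet and number as a replicate block, 0 carriers passed by amount or interaction. The 2 related transport genes became 1 with second probe sets, no filter or no trend, 0 under median scaling and on the 10 µg or 2 µg arrays alone, and 0 to 3 leaving out 1 value in turn.

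Estimates of some carriers, none of them called, changed sign under other settings. With the second brightest probe set these were Slc5a1 (-0.246) and Slc18a3 (-0.246). Under median scaling they were Slc35a1 (-0.0307), Slc12a4 (-0.0131) and Slc27a1 (-0.010). Under quantile scaling they were Slc35a1 (-0.026), Slc12a4 (-0.0104) and Slc27a1 (-0.00341). On the 10 µg arrays they were Slc2a4 (0.416), Slc25a20 (0.0116), Slc8a2 (0.075), Slc12a3 (-0.294) and Slc5a5 (0.0888). On the 2 µg arrays they were Slc22a5 (-0.0169), Slc5a6 (-0.052), Slc4a2 (-0.0371), Slc35a1 (-0.0755), Slc6a11 (0.147), Slc8a2 (0.146), Slc1a2 (-0.016), Slc12a4 (-0.0688), Slc27a1 (-0.105) and Slc30a4 (-0.173). With a random block there was Slc8a2 (0.0536). Leaving out 1 value in turn gave ranges of -0.021 to 0.288 for Slc37a4, -0.157 to 0.053 for Slc25a20, -0.0231 to 0.169 for Slc12a4, -0.352 to 0.000497 for Slc16a8, -0.208 to 0.268 for Slc2a4, -0.141 to 0.201 for Slc8a2, -0.0459 to 0.499 for Slc12a3, -0.389 to 0.0134 for Slc5a5, -0.0939 to 0.103 for Slc35a1, -0.135 to 0.0619 for Slc25a1, -0.00403 to 0.194 for Slc4a2, -0.212 to 0.000205 for Slc6a11 and -0.0217 to 0.14 for Slc27a1. The cause of these changes was not tested. The limits are 4 values per diet, probe sets near the filter whose signal over background is unknown here, and scaling, since the median difference of all probe sets tested went from 0.0439 to -0.0194 under median scaling.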

Other observations

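The 33 solute carriers under the filter had no test. Their diet means gave a difference above 0 for 14 and below 0 for 19. The one with the largest difference was Slc18a2, the vesicular monoamine transporter, with means of 6.06 ± 0.48 in sufficient and 5.30 ± 0.59 in deficient liver (SD, n = 4), and its values overlapped. The values of 1 of the 33, the neuronal glutamate transporter Slc1a6, did not overlap, with means of 4.89 ± 0.10 and 4.66 ± 0.11. Both were named after their values were seen.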
